A study of Mus musculus with 12 samples.

Results

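Apolipoproteins are the protein parts of lipoprotein particles and related lipid carriers, and 9 of their genes were followed here in adipocytes carrying different forms of the nuclear receptor PPARγ. The members were the rows for Apoa1, Apoa2, Apoa4, Apob, Apoc1, Apoc3, Apod, Apoe and Apom among 55573 gene rows, and all 9 were found. The set was chosen on these same data, because Apob, Apoa4 and Apoe differed between the genotypes in different directions. The levels of those 3 genes are therefore given as a description with no test. Stromal vascular cells from subcutaneous (inguinal) white fat of C57BL/6 mice were grown to confluence, differentiated for 4 days with insulin, triiodothyronine, IBMX, dexamethasone and indomethacin, kept in insulin and triiodothyronine, and harvested on day 8 as mature adipocytes. The 3 genotypes were homozygous, with 4 libraries each. They were wild-type PPARγ (WT), the T166A form that cannot be phosphorylated at that threonine (TA), and the T166D form that mimics phosphorylation (TD). TA and TD were separate germline mutant strains, and the paper names wild-type littermates as its controls. The age and sex of the mice, and whether the 4 libraries of a genotype came from separate animals or cultures, were not given in the sources used here, so p-values measure the spread between libraries, which may be technical. Point mutations leave the gene in place, so the read count of Pparg is no check of the genotype labels.

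In the circulation, liver and gut package triglyceride and cholesterol into particles built around apolipoprotein B, and smaller exchangeable apolipoproteins then move between these particles and HDL. The exchangeable proteins steer the particles: apolipoprotein E is a ligand for endocytic lipoprotein receptors, apolipoproteins C1 and C3 restrain lipolysis and uptake, and apolipoproteins A1, A2, A4 and M are found on HDL or chylomicrons. Adipocytes are not a site of bulk lipoprotein secretion, but they make apolipoprotein E, take up fatty acids that lipoprotein lipase releases, and exchange cholesterol with HDL. Apolipoprotein D is a lipocalin, a small carrier of lipophilic molecules.

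The libraries held 16553324 to 20324286 counted reads each. Levels are given as CPM, read counts scaled to a common library size with TMM factors, and levels of different genes are compared only as CPM per kb of exon. Differences are log2 fold changes with their standard error (SE) from 1 edgeR quasi-likelihood fit of all 12 libraries, with Benjamini-Hochberg adjustment over 15117 tested genes and a call at an adjusted p under 0.05. The 3 comparisons share libraries (WT serves 2 of them, as do TA and TD), so their values stand side by side and are not independent. In TD against WT, 15.1% of all tested genes were called higher and 14.2% lower, and the 4 libraries of each genotype did not overlap for 32.2%. In TA against WT the shares were 6.72% higher, 4.41% lower and 13.6% without overlap. In TD against TA they were 7.33% higher, 9.37% lower and 19.9% without overlap. These shares are the background for each count of members, list genes or markers below. Since the set was chosen on these contrasts, nothing is read from the members' share. The split of calls depended on the processing. With scaling by total count alone, TD against WT gave 2840 higher and 1558 lower genes, where TMM gave 2276 and 2142. TD against TA gave 1802 higher and 982 lower, where TMM gave 1108 and 1416, and without the filter on low counts it gave 1681 higher and 1416 lower.

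The stretches of genome just before Apoe, Apob and Apoa4 are shown because these are the genes on which the set was chosen. They come from RefSeq promoter windows (GRCm38.p6), are cut to the bases before both the RefSeq and the GENCODE start, and are written 5′ to 3′ on the strand of the gene, with the letters TATAAA in capitals. Apoe lies at chr7:19699189-19699438 (minus strand), Apob at chr12:7977427-7977647 (plus strand) and Apoa4 at chr9:46240594-46240695 (plus strand).
Apoe: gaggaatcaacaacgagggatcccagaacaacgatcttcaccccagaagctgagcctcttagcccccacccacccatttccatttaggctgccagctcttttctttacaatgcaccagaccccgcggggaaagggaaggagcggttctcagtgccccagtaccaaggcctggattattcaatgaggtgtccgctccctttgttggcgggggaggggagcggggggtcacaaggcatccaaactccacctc
Apob: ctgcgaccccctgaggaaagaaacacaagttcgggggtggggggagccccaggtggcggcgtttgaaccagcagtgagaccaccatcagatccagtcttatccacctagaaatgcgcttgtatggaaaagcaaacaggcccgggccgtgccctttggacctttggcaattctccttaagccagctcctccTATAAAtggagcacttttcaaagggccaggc
Apoa4: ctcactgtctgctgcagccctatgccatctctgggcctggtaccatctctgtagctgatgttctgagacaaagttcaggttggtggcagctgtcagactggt
In the Apob stretch TATAAA began 31 bases before the GENCODE start. Over whole windows of 300 bases, searched on both strands, TATAAA was in 3 of the 10 windows that 7 members have in the table and in 13.6% of all 32851 windows. The nuclear receptor core site AGGTCA was in 1 of the 10 windows, an upstream window of Apoa2, and in 16.3% of all. The direct repeat AGGTCANAGGTCA, the arrangement bound by PPARγ with its partner RXR, was in 0.0396% of all windows, its looser form AGGNCANAGGNCA in 0.381%, and the LXR-type repeat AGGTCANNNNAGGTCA in 0.0152%. None of these repeats was found in the 10 member windows, which says only that those letters are not within them. Apoc1 and Apoc3 have no window in the table.

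Levels of the members spanned a wide range. Per kb of exon, Apoe was the highest member in each genotype, with 596 CPM per kb in WT, 1280 in TA and 696 in TD, and it made up 82.3% ± 1.28 (SD, n = 4) of the summed level of the 9 members in WT, 89.2% ± 1.37 in TA and 89.8% ± 1.17 in TD. Among all genes it ranked 54th by this measure in WT, 21st in TA and 42nd in TD. Apoc1 followed with 88.7 CPM per kb in WT, 114 in TA and 42.5 in TD, and its libraries did not overlap with those of Apoe in any genotype. In WT, Apoc3 (23.5 CPM per kb) lay above Apod (13.4) without overlap. In TA, Apod followed Apoc1 at 22.5 CPM per kb and overlapped Apoc3 at 16.5, and in TD, Apod at 27.7 overlapped Apoc1 and lay clear of Apoc3. The other 5 members were all below 1 CPM per kb in WT and most of their neighbours in the order overlapped. Apob, with 13934 bases of exon, was the lowest member per kb in WT, at 0.00835 CPM per kb, and in TA, at 0.0646. Enough counts to be tested were found for 7 members, and not for Apoa2 and Apom. Apob and Apoa4 passed the count filter only through the genotype in which they were high, so their difference was partly a condition of being in the fit.

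**Figure D1:**
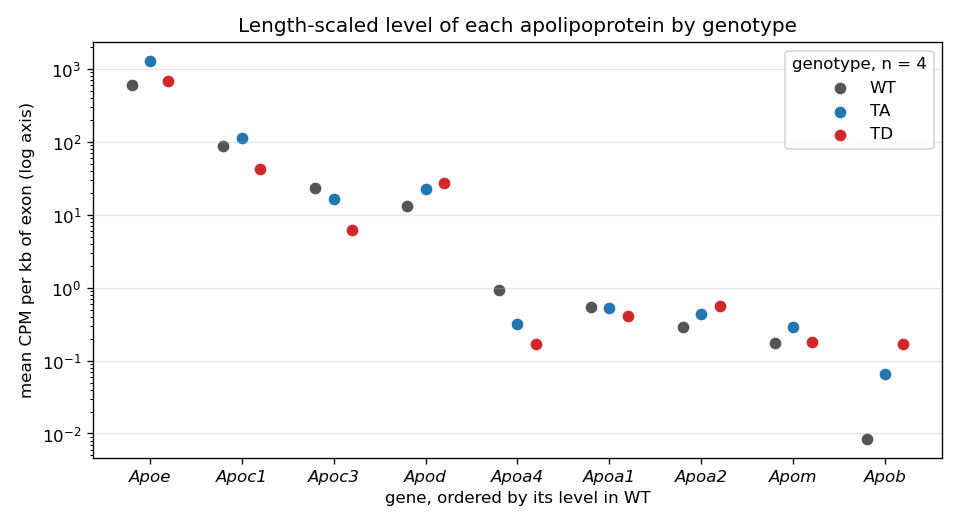
Mean level of each of the 9 apolipoprotein genes in WT, TA and TD (4 libraries each), in CPM per kb of exon on a log axis, with genes ordered by their level in WT. Apoe stood at 596, 1280 and 696, Apoc1, Apoc3 and Apod formed a middle group, and the other 5 genes lay below 1 in WT, with Apob at 0.00835.

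Apoe (ENSMUSG00000002985, chr7:19696109-19699188, minus strand, 5 exon blocks) encodes the receptor ligand. Its level was 1530, 1190, 1040 and 1340 CPM in WT replicates 1 to 4. In TA it was 2520, 2980, 2170 and 3280 CPM, and in TD it was 1610, 1590, 1600 and 1150 CPM. Each TA library was higher than each WT and TD library, whereas TD and WT overlapped. The means were 1280 ± 210 CPM in WT, 2740 ± 492 in TA and 1490 ± 228 in TD (SD, n = 4 each), and Apoe took 0.126% of all counted reads in WT, 0.268% in TA and 0.154% in TD. TA was 1.10 above WT on the log2 scale (SE 0.15), 2.15-fold. TD was 0.22 above WT (SE 0.15) and differed from TA by −0.88 (SE 0.15). Without TD replicate 4, the lowest TD library, TD was 0.33 above WT.

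Apob (ENSMUSG00000020609, chr12:7977648-8016835, plus strand, 29 exon blocks) encodes the protein on which chylomicrons, VLDL and LDL are built, and was close to the floor of detection. WT replicates 1 to 4 held 6, 0, 2 and 1 counts. The TA libraries held 30, 2, 0 and 31 counts, and the TD libraries 24, 54, 72 and 21. Each TD library held more than each WT library, while TA split into 2 libraries with the low counts of WT and 2 within the range of TD. As summed counts over the summed library sizes, Apob stood at 0.116 CPM in WT (9 counts, exact Poisson 95% interval 0.0529 to 0.219), 0.909 in TA (63 counts, 0.698 to 1.16) and 2.37 in TD (171 counts, 2.03 to 2.76). TD was 20.5 times WT and TA was 7.86 times WT by these sums. The intervals cover counting error only, and the counts within TA ran from 0 to 31. The fitted log2 differences were 4.26 (SE 0.93) for TD against WT, 2.89 (SE 1.01) for TA against WT and 1.37 (SE 0.71) for TD against TA. WT replicate 1 held most of the WT counts, and without it TD against WT was 5.34 and TA against WT 3.97. Without TA replicate 1 or 4 the value of TA against WT was 2.36 or 2.35. Hepatocyte markers, a list of 8 genes of which 3 had enough counts to be tested, were low throughout. Their summed level was 3.02 to 3.40 CPM in WT, 10.0, 5.10, 5.07 and 7.95 CPM in TA replicates 1 to 4, and 5.45, 7.01, 3.73 and 3.58 CPM in TD. The sum was highest in the 2 TA libraries that held most Apob, but in TD it did not follow Apob. Its genes did not move as 1: in TA replicates 1 to 4, Alb held 89, 25, 27 and 48 counts, Ahsg 21, 8, 22 and 14, and Fga 31, 43, 38 and 62. Ttr held 3, 0, 0 and 5 counts there and Fgb 13, 0, 0 and 3, both highest in the 2 libraries that held most Apob. Over replicates 1 to 4, Ttr held 1, 0, 1 and 0 counts in WT and 9, 7, 12 and 1 in TD. Fgb held 0 counts in each WT library and 2, 2, 0 and 2 in TD. In TD replicate 3, where Apob was highest, Alb held 6 counts, Ahsg 27, Fga 17 and Ttr 12, the last its highest count. Fgg, Cps1 and G6pc, the remaining genes of the list, are in the sum but are not given by library. The part of the hepatocyte markers in the Apob values was not tested. The enterocyte list, 9 genes, summed to under 1 CPM in each library, with Fabp2, Cdx2 and Rbp2 at 0 in all 12.

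Apoc1 (ENSMUSG00000040564, chr7:19689481-19692660, minus strand) encodes a small inhibitor of lipoprotein uptake and lipolysis. It fell in TD. WT replicates 1 to 4 held 76.9, 68.8, 57.1 and 61.2 CPM, TA 89.1, 108, 63.5 and 78.3 CPM, and TD 40.1, 32.2, 30.2 and 23.9 CPM. The 4 TD libraries lay below all others, and WT and TA overlapped. The means were 66.0 ± 8.74 CPM in WT, 84.7 ± 18.7 in TA and 31.6 ± 6.69 in TD (SD, n = 4 each). By edgeR with Benjamini-Hochberg adjustment, TD differed from WT by −1.06 on the log2 scale (SE 0.16, adjusted p = 0.00024) and from TA by −1.42 (SE 0.16, adjusted p = 2.73e-05). TA against WT was 0.36 (95% interval 0.03 to 0.68), which did not pass (edgeR adjusted p = 0.153), but did at 0.48 without TA replicate 3 (edgeR adjusted p = 0.0464).

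Apoc3 (ENSMUSG00000032081, chr9:46232933-46235636, minus strand) encodes an inhibitor of lipoprotein lipase and of remnant clearance, and it also fell in TD. It held 28.8, 22.8, 18.1 and 25.8 CPM in WT, 14.2, 24.4, 11.6 and 16.6 CPM in TA, and 7.38, 7.01, 5.91 and 4.81 CPM in TD. All TD libraries were below all TA libraries, and TA replicate 2 was the TA library within the range of WT. The means were 23.9 ± 4.56, 16.7 ± 5.54 and 6.28 ± 1.16 CPM in WT, TA and TD (SD, n = 4 each). TD differed from WT by −1.92 (SE 0.21, edgeR adjusted p = 5.67e-05) and from TA by −1.41 (SE 0.21, edgeR adjusted p = 0.000366). For TA against WT the value of −0.52 (95% interval −0.93 to −0.10) did not pass (edgeR adjusted p = 0.103), and without TA replicate 2 it was −0.76 and passed (edgeR adjusted p = 0.00789). The falls of Apoc1 and Apoc3 in TD against WT and TA passed without each library in turn and under each other setting tried.

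**Figure D2:**
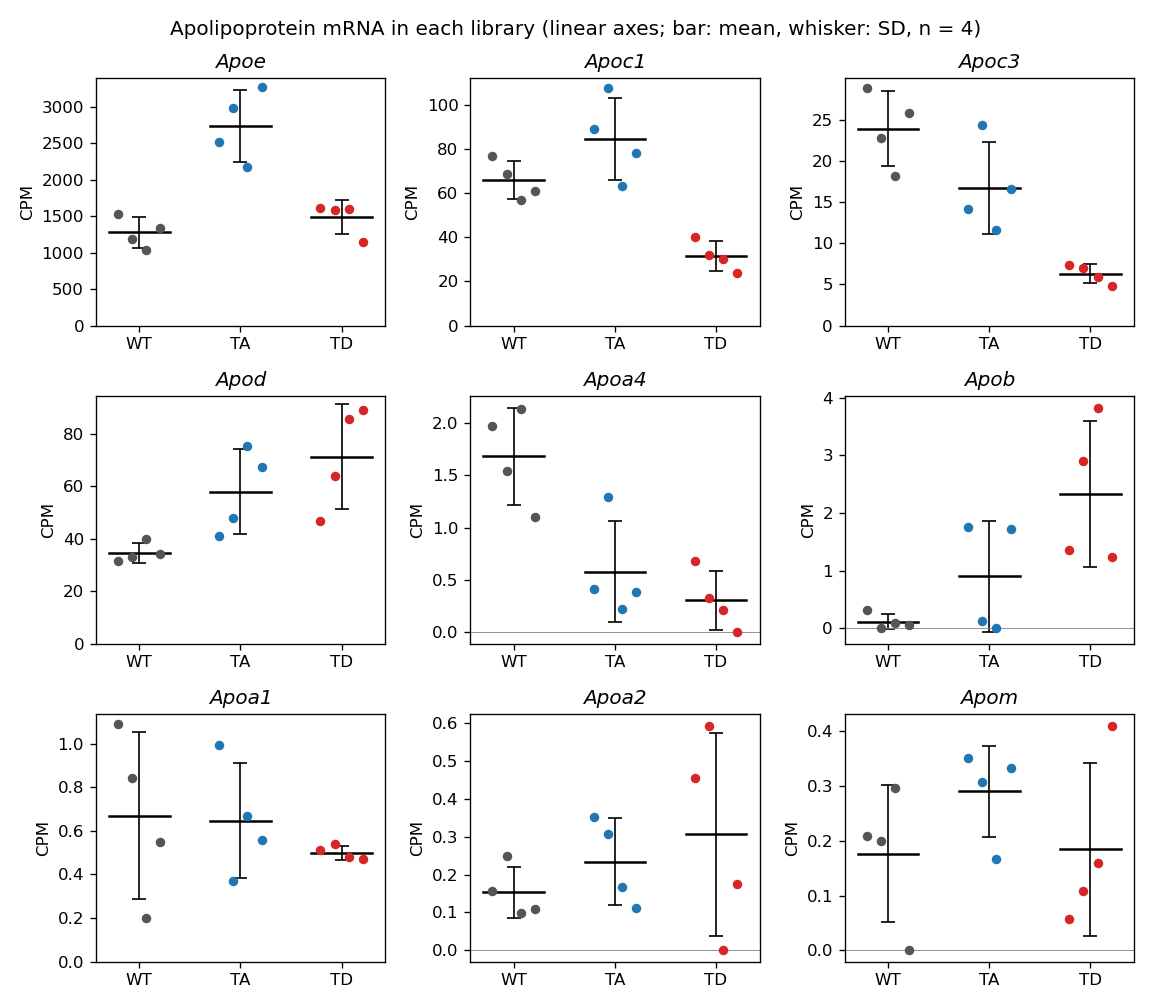
CPM of each of the 9 genes in each library, on linear axes with a scale of their own, with points in replicate order, the mean as a bar and the SD as a whisker (n = 4). Apoe was highest in TA, Apoc1 and Apoc3 were lowest in TD, Apod was lowest in WT, and Apoa4 and Apob ran in opposite directions at under 4 CPM.

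Among the HDL and chylomicron proteins, Apoa4 (ENSMUSG00000032080, chr9:46240696-46243459, plus strand), which encodes a protein that the gut puts on chylomicrons, was the one with a clear gap between WT and TD. It held 38, 31, 43 and 20 counts in WT, 7, 21, 4 and 7 counts in TA and 12, 6, 4 and 0 counts in TD. TD did not overlap WT, and the TA library with 21 counts was inside the WT range. The means were 1.68 ± 0.465 CPM in WT, 0.578 ± 0.483 in TA and 0.304 ± 0.285 in TD (SD, n = 4 each). Summed counts put TD at 0.180 times and TA at 0.332 times the rate in WT. The fitted log2 differences were −2.44 (SE 0.60) for TD against WT, −1.55 (SE 0.55) for TA against WT and −0.89 (SE 0.66) for TD against TA. The last was −0.15 without TA replicate 2 and −0.50 without TD replicate 4, and TA against WT was −2.29 without TA replicate 2. A pair of antisense gene models, Gm47528 and Gm10680, share 634 and 632 of the 1815 exon bases of Apoa4 and were at 0 counts on average. The strand setting was not given, so how reads in those bases were counted is not known.

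Apoa1, Apoa2 and Apom, which encode the main HDL proteins and a carrier of sphingosine 1-phosphate, were near the floor in all genotypes. Apoa1 (ENSMUSG00000032083, chr9:46228580-46230466, plus strand) held 21, 17, 4 and 10 counts in WT, 17, 6, 12 and 10 counts in TA and 9, 10, 9 and 8 counts in TD. The genotypes overlapped, and none of its differences passed: TD against WT was −0.42 (95% interval −1.39 to 0.55, edgeR adjusted p = 0.534), TA against WT −0.05 (−0.99 to 0.90, edgeR adjusted p = 0.965) and TD against TA −0.37 (−1.35 to 0.61, edgeR adjusted p = 0.631). The sign of TA against WT turned when single libraries were left out, from −0.36 to 0.28. Apoa2 (ENSMUSG00000005681, chr1:171225054-171226379, plus strand) held 3, 5, 2 and 2 counts in WT, 6, 5, 3 and 2 counts in TA and 8, 11, 0 and 3 counts in TD. Summed, TD was 1.98 times WT, with an interval of 0.939 to 4.39 that covers counting error only. Apom (ENSMUSG00000024391, chr17:35128997-35132050, minus strand) held 4, 4, 6 and 0 counts in WT, 6, 5, 3 and 6 counts in TA and 1, 2, 3 and 7 counts in TD, and summed TA was 1.60 times WT with a counting interval of 0.771 to 3.43. Differences of about 2-fold in these 2 genes were not detectable at this depth.

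Apod (ENSMUSG00000022548, chr16:31296192-31314808, minus strand), which encodes a lipocalin, rose in both mutants. It held 31.4, 32.9, 40.0 and 34.1 CPM in WT, 41.0, 47.9, 75.4 and 67.2 CPM in TA and 46.7, 63.8, 85.7 and 89.2 CPM in TD. Every mutant library was above every WT library, by a narrow margin for TA replicate 1, and TA and TD overlapped. The means were 34.6 ± 3.79, 57.9 ± 16.1 and 71.3 ± 19.9 CPM in WT, TA and TD (SD, n = 4 each). TD was 1.04 above WT (SE 0.20, edgeR adjusted p = 0.00104), 2.06-fold, and this call held without each library in turn. TA was 0.74 above WT (SE 0.20, edgeR adjusted p = 0.0213). That call was lost without WT replicate 1 (edgeR adjusted p = 0.071), WT replicate 4 (0.050), TA replicate 3 (0.0652) or TA replicate 4 (0.0662). TD against TA was 0.30 (95% interval −0.11 to 0.71) and did not pass (edgeR adjusted p = 0.305).

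**Figure D3:**
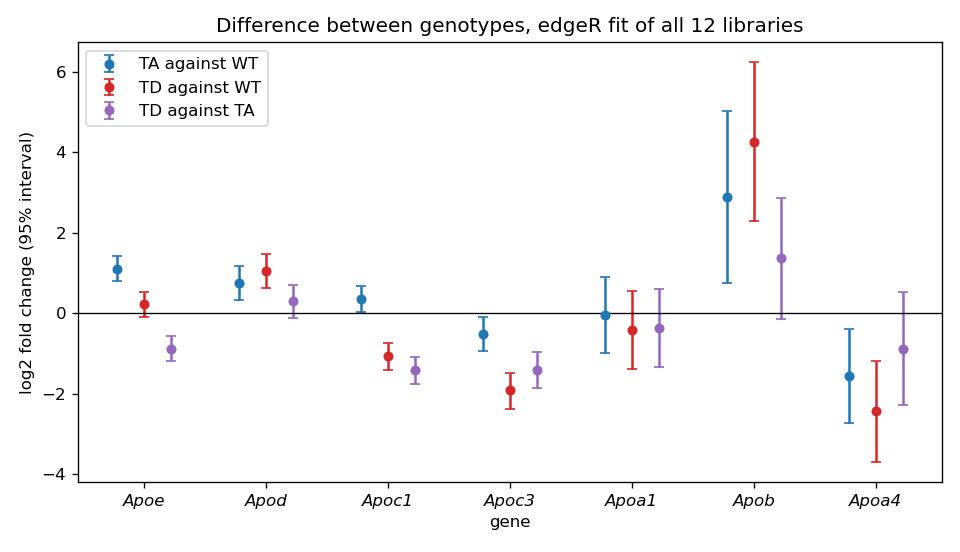
Log2 fold change with its 95% interval (edgeR fit of all 12 libraries, 4 per genotype) for the 7 members with enough counts, in TA against WT, TD against WT and TD against TA. The values for Apoe, Apob and Apoa4 are a description, since the set was chosen on them; the TD against WT values run from −2.44 for Apoa4 to 4.26 for Apob.

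The members lie in part side by side in the genome. On chromosome 7, Apoe and Apoc1 are on the same strand with 3.45 kb between them, and the 2 differed between genotypes in unlike ways. For every 100 Apoe counts there were 5.22 ± 0.534 Apoc1 counts in WT, 3.12 ± 0.575 counts in TA and 2.12 ± 0.256 counts in TD (SD, n = 4 each). The lowest WT library (4.58) was above the highest TA library (3.62), and the highest TD library (2.49) overlapped the lowest TA library (2.39). The set was chosen in part on Apoe, which was higher in TA, so the gap between WT and TA in this ratio partly restates that choice. Apoc4, a further gene of that cluster and no member of the set, held 54, 41, 53 and 41 counts in WT, 76, 106, 52 and 96 counts in TA and 9, 22, 25 and 17 counts in TD. It fell in TD against WT by 1.26 on the log2 scale (SE 0.30, edgeR adjusted p = 0.00541) and against TA by 2.24 (SE 0.30, edgeR adjusted p = 0.000138). Its value in TA against WT was 0.98 (SE 0.27, edgeR adjusted p = 0.0263), a call lost without any of WT replicates 2, 3 and 4 or TA replicates 1, 2 and 4, with adjusted p up to 0.0755. On chromosome 9, Apoa1, Apoc3 and Apoa4 lie within a few kb, with gaps of 2.47 and 5.06 kb and with Apoc3 on the opposite strand. Apoc3 fell in TD and Apoa4 was lower there, while Apoa1 between the genotypes overlapped at low counts. For every 100 Apoc3 counts there were 7.41 ± 3.15 Apoa4 counts in WT, 3.11 ± 1.51 counts in TA and 4.36 ± 3.80 counts in TD, with wide overlap.

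**Figure D4:**
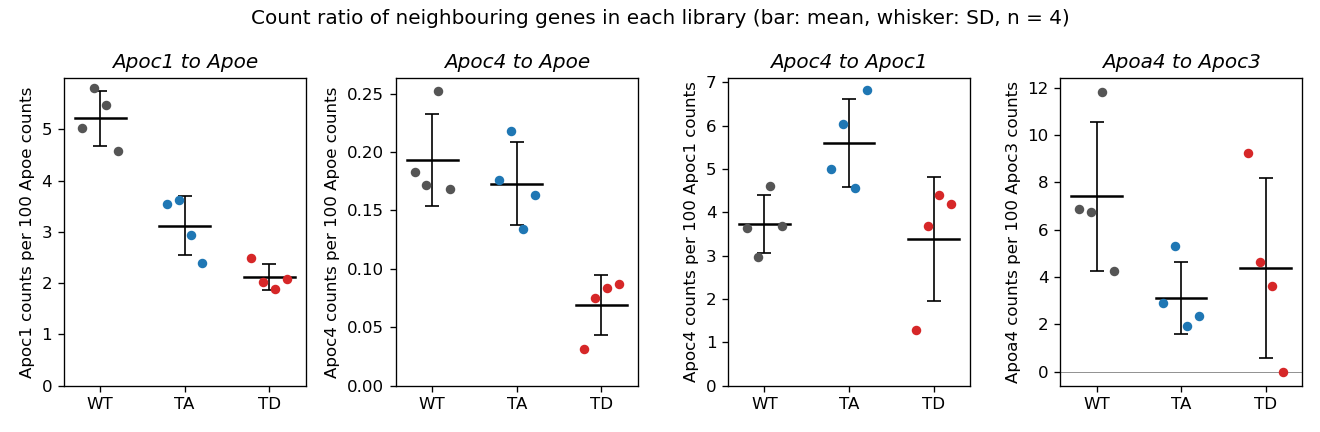
Counts of one gene per 100 counts of its neighbour in each library (points in replicate order, bar: mean, whisker: SD, n = 4), on axes that start at 0 or just below it. The Apoc1 to Apoe ratio was 5.22 in WT, 3.12 in TA and 2.12 in TD, and the Apoa4 to Apoc3 ratio overlapped between all genotypes. Ratios with Apoe or Apoa4 are a description, since the set was chosen in part on these genes.

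The genes whose log2 CPM followed each member most closely over the 12 libraries differed from member to member. They are given by Pearson's r as a description; all points share the 3 genotypes. For Apoc3 these were Uqcrfs1 (r = 0.991), Hadha (0.990) and Atp5b (0.990), which encode a complex III subunit, a fatty acid oxidation enzyme and an ATP synthase subunit. For Apoc1 they were Pdha1 (r = 0.985), a subunit of pyruvate dehydrogenase, Swi5 (0.984) and Mpc1-ps (0.984), a pseudogene whose reads could be shared with the pyruvate carrier gene Mpc1. Apoe was nearest to Actr3b (r = 0.945), Mtch1 (0.938) and the amino acid transporter gene Slc7a10 (0.937). Apod was nearest to Lpcat1 (r = 0.953), Palld (0.946) and Agrn (0.943), the last 2 encoding an actin-associated protein and a matrix proteoglycan. Apob was nearest to Zkscan7 (r = 0.911), Meox1 (0.899) and Pgam2 (0.890), at counts too low for a close ranking.

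Marker levels were set beside these values because cell types in the dish can differ. Fewer cells of a type and less RNA per cell cannot be told apart in such bulk libraries. Adipocyte markers were strongly expressed in all libraries, for example Adipoq at 729 CPM and Fabp4 at 7710 CPM in WT, and the summed list of 9 was 14700 to 17400 CPM in WT, 14700 to 20000 in TA and 9610 to 11700 in TD, with 7 of the 9 called lower in TD against WT. The list of 12 progenitor and fibroblast markers summed to 10200 to 13600 CPM in WT, 11500 to 20600 in TA and 17700 to 25900 in TD, with 9 of the 11 tested called higher in TD against WT and 7 in TA against WT. Within each genotype the libraries with the highest Apoc1 and Apoc3 (WT replicate 1, TA replicate 2, TD replicate 1) were those with the highest adipocyte sum. Below the top library, the order of Apoc1 followed that of the adipocyte sum in TD but not in WT or TA. The order of Apoc3 followed it in TA and TD but not in WT. The libraries with the highest Apod were TA replicate 3 and TD replicate 4, which also had the highest fibroblast sum of their genotype, and WT replicate 3, which had the second highest. The part of cell composition in the Apoc1, Apoc3 and Apod differences was not tested. Macrophages also express Apoe and Apoc1. Their 14 markers summed to 325 to 962 CPM in WT, 180 to 706 in TA and 734 to 994 in TD. The part of macrophages in the Apoe and Apoc1 values was not tested. Endothelial markers summed to 25 to 53.5, 47.2 to 85.3 and 100 to 126 CPM, and skeletal muscle markers to 1.54 to 7.0, 12.6 to 62.0 and 13.1 to 228 CPM, in WT, TA and TD. All 8 skeletal muscle markers were called higher in TD against WT and 5 in TA against WT. Schwann cell markers summed to 14.5 to 33.4 CPM and mesothelial markers to 1.11 to 4.80 CPM over all libraries.

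Other apolipoprotein genes, 17 in the list, were mostly low, and 9 had enough counts to be tested. In TD against WT, 2 of the 9 rose and 3 fell, in TA against WT 4 were called, each higher, and in TD against TA 2 were called, each lower. Clu (clusterin, or apolipoprotein J, a secreted chaperone found on HDL) rose from 28.9 ± 6.24 CPM in WT to 56.2 ± 11.8 in TA (log2 0.96, SE 0.15, edgeR adjusted p = 0.000489) and to 45.2 ± 4.55 in TD (0.64, SE 0.15, edgeR adjusted p = 0.00427; SD, n = 4 each). Apol9a, of a family of intracellular apolipoprotein L proteins, rose in TA against WT from 8.47 ± 0.943 to 20.7 ± 6.14 CPM (log2 1.29, SE 0.24, edgeR adjusted p = 0.00218). In TD it was at 14.6 ± 5.47 CPM (0.78 against WT, SE 0.24, edgeR adjusted p = 0.0231), a call lost without WT replicate 1, 2 or 3 or TD replicate 3 or 4, with adjusted p up to 0.0978. Apol9b was at 5.92 ± 1.78 CPM in WT and 13.0 ± 1.74 in TA (log2 1.14, SE 0.29, edgeR adjusted p = 0.0161, and 0.0533 without WT replicate 3). Apol9a and Apol9b are near-identical copies, so how reads divide between them is uncertain. Apool, a mitochondrial cristae protein despite its name, fell in TD against WT by 0.39 (SE 0.11, edgeR adjusted p = 0.0129). Apoo, its relative, was at 5.98 ± 1.09, 6.06 ± 1.31 and 4.31 ± 1.18 CPM and did not pass (edgeR adjusted p from 0.111 to 0.975). Apol6, at 261 ± 35.1 CPM in WT, fell in TD against TA by 0.45 (SE 0.11, edgeR adjusted p = 0.0136), a call lost without TA replicate 2 (edgeR adjusted p = 0.0572). Against WT it was lower in TD by 0.36 (SE 0.11, edgeR adjusted p = 0.0264), a call lost with total-count scaling and without WT replicate 1 or 2 or TD replicate 2, 3 or 4, with adjusted p up to 0.0862 without 1 library. It overlaps the Mb gene on the other strand by 64 bases of exon. Apoc2, which encodes the activator of lipoprotein lipase, held 1 count in all. It shares 646 bases of exon with the gene model Gm44805 on the same strand, which held 1.1 counts on average. How reads in the shared bases were assigned was not given, so the count of Apoc2 may be too low.

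Over 6 lists, the other apolipoproteins just described and the genes for lipoprotein assembly, reception, lipolysis, lipid transfer and their transcription, 71 of 93 genes were tested. TD against WT gave 12 higher and 19 lower, TA against WT 16 higher and 5 lower, and TD against TA 2 higher and 18 lower. Of all tested genes, 15.1% were higher and 14.2% lower in TD against WT, and 6.72% and 4.41% in TA against WT. In TD against TA these shares were 7.33% and 9.37%. With scaling by total count alone, TD against WT gave 14 higher and 14 lower, and TD against TA 5 higher and 15 lower. The median log2 difference of the lists was −0.03, 0.06 and −0.07 in these comparisons, beside 0.01, −0.01 and 0.02 over all tested genes. Without WT replicate 1 the calls in TD against WT were 20 in all.

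**Figure D5:**
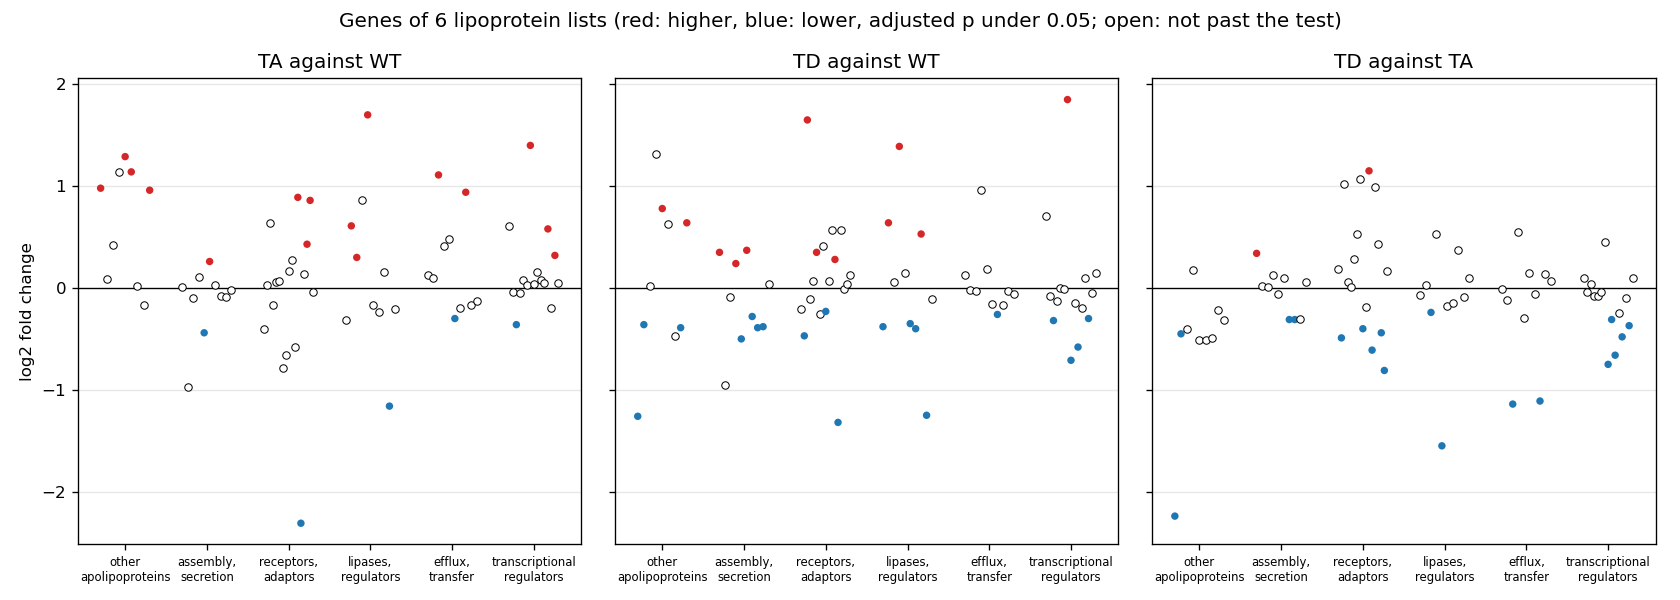
Log2 fold change of each tested gene in 6 lists, the other apolipoproteins included (71 genes), in TA against WT, TD against WT and TD against TA, with filled points for genes called at an adjusted p under 0.05 (red higher, blue lower) and open points for the rest. In TD against TA, 18 points are blue and 2 red, and in TA against WT, 16 are red and 5 blue. Of all tested genes, 9.37% were lower and 7.33% higher in TD against TA, and 6.72% higher and 4.41% lower in TA against WT.

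Of the genes that act on particles built with Apob, Mttp, whose product loads lipid onto apolipoprotein B, went the other way from Apob: it fell from 19.5 ± 0.644 CPM in WT to 14.5 ± 2.18 in TA (log2 −0.44, SE 0.11, edgeR adjusted p = 0.0181) and 13.8 ± 1.41 in TD (−0.50, SE 0.11, edgeR adjusted p = 0.00341). Sar1b, needed for export of chylomicrons from the endoplasmic reticulum, fell in TD against WT (−0.39, SE 0.08, edgeR adjusted p = 0.00145) and against TA (−0.31, SE 0.08, edgeR adjusted p = 0.0118). Sort1, a sorting receptor for apolipoprotein B, fell in TD against WT by 0.38 (SE 0.10, edgeR adjusted p = 0.0109), and P4hb, whose product is the partner subunit of MTP, rose by 0.37 (SE 0.08, edgeR adjusted p = 0.00243). In this list of 12, 10 were tested, and 3 rose and 4 fell in TD against WT. Mttp shares 457 bases of exon with Trmt10a on the other strand. Trmt10a held 137.0 counts on average and Mttp 292.8, and the strand setting of the counting was not given.

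Among receptors that bind apolipoprotein E, Vldlr did not pass in any comparison. It stood at 336 ± 30.5 CPM in WT, 326 ± 7.04 in TA and 367 ± 27.5 in TD (edgeR adjusted p from 0.146 to 0.791). Lrp1, a large endocytic receptor for apolipoprotein E, was at 2640 ± 253 CPM in WT and 3370 ± 629 in TD (log2 0.35, SE 0.13, edgeR adjusted p = 0.0450), a call lost without WT replicate 1, 2 or 4 or TD replicate 3 or 4, with adjusted p up to 0.182. Sorl1, another receptor for apolipoprotein E, rose in TA from 114 ± 8.80 to 206 ± 24.7 CPM (log2 0.86, SE 0.10, edgeR adjusted p = 4.48e-05) and was 118 ± 15.7 CPM in TD. Mylip, a ubiquitin ligase that marks lipoprotein receptors for degradation, rose in TA against WT by 0.89 (SE 0.08, edgeR adjusted p = 3.93e-06). Scarb1, the HDL receptor, rose in TA against WT by 0.43 (SE 0.09, edgeR adjusted p = 0.00728). Olr1, a receptor for oxidised LDL, fell in TA by 2.31 (SE 0.32, edgeR adjusted p = 0.000191) and in TD by 1.32 (SE 0.30, edgeR adjusted p = 0.00349) against WT, at 3.70 CPM in WT. Cd36, the fatty acid transporter, fell in TD against WT (−0.47, SE 0.10, edgeR adjusted p = 0.002), and the macrophage scavenger receptor Msr1 was higher in TD than in TA (1.15, SE 0.29, edgeR adjusted p = 0.0124), as were 3 of the 14 macrophage markers.

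Among lipases, Lpl, the enzyme that apolipoproteins C2 and C3 regulate, held 7450 ± 416 CPM in WT, 6300 ± 483 in TA and 5660 ± 155 in TD (SD, n = 4 each). It fell in TD against WT by 0.40 (SE 0.09, edgeR adjusted p = 0.00294), and its value in TA against WT was −0.24 (SE 0.09, edgeR adjusted p = 0.084). Lipg, endothelial lipase, rose in TA against WT by 1.70 (SE 0.36, edgeR adjusted p = 0.0058) from 1.84 ± 1.06 CPM, and TD at 2.05 ± 0.700 CPM was below TA (−1.55, SE 0.36, edgeR adjusted p = 0.00859). Gpihbp1, the endothelial anchor of lipoprotein lipase, rose in TD against WT by 1.39 (SE 0.30, edgeR adjusted p = 0.00263), and all 6 endothelial markers were called higher there as well. Angptl8, an inhibitor of lipoprotein lipase, rose in TA by 0.61 (SE 0.13, edgeR adjusted p = 0.00618) and in TD by 0.64 (SE 0.13, edgeR adjusted p = 0.00196). Pcsk6, a convertase that cleaves lipases, fell in TA by 1.16 (SE 0.16, edgeR adjusted p = 0.000165) and in TD by 1.25 (SE 0.16, edgeR adjusted p = 0.000102).

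Of the 10 tested genes for cholesterol efflux and lipid transfer, Abcg1 and Pltp rose in TA, the genotype in which Apoe was highest. Abcg1, a cholesterol exporter to HDL, was at 57.2 ± 4.30 CPM in WT, 124 ± 17.6 in TA and 56.1 ± 4.13 in TD. It rose in TA against WT by 1.11 (SE 0.10, edgeR adjusted p = 1.61e-06) and was lower in TD than in TA by 1.14 (SE 0.10, edgeR adjusted p = 1.44e-06). Pltp, which moves phospholipid between lipoproteins, was at 33.0 ± 2.54, 63.5 ± 17.1 and 29.4 ± 3.78 CPM, rose in TA by 0.94 (SE 0.15, edgeR adjusted p = 0.000773) and was lower in TD than in TA by 1.11 (SE 0.16, edgeR adjusted p = 0.000208). Abca1, the exporter that loads lipid onto apolipoprotein A1, did not follow them, at 612 ± 72.0, 670 ± 88.5 and 668 ± 38.8 CPM with edgeR adjusted p from 0.381 to 0.977. Pltp shares 495 bases of exon with Ctsa on the other strand. Ctsa held 4904.2 counts on average and Pltp 754.8, and the strand setting of the counting was not given. Of the regulators, Nr1h3, which encodes LXRα, was at 87.6 ± 4.07, 89.6 ± 13.8 and 87.1 ± 3.75 CPM (edgeR adjusted p from 0.808 to 0.964). Its partner Rxra rose in TA against WT by 0.58 (SE 0.07, edgeR adjusted p = 4.31e-05). The part of LXRα in the Apoe, Abcg1, Pltp and Abca1 values was not tested. Pparg fell in TD against WT by 0.58 (SE 0.09, edgeR adjusted p = 0.000429) and Ppara, an activator of lipid oxidation genes, by 0.71 (SE 0.18, edgeR adjusted p = 0.00678). Nr1h4, the bile acid receptor FXR, rose in TA by 1.40 (SE 0.29, edgeR adjusted p = 0.00439) and in TD by 1.85 (SE 0.28, edgeR adjusted p = 0.000262) from 0.765 ± 0.316 CPM.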

How the data were processed

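Total RNA was sequenced from 12 libraries; how mRNA was selected, the strand setting and the read length were not given in the sources used here. Per the labels, reads were demultiplexed with bcl2fastq 2.17.1.14, trimmed with cutadapt 1.9.1, aligned to GRCm38 with HISAT2 2.0.1 and counted per gene with HTSeq 0.6.1. The deposited values are raw counts, and the whole table was read; 99.7% of its 55573 rows were found in GENCODE M21, from which exon lengths and positions were taken. Counts were scaled by TMM (factors 0.957 to 1.04) and fitted with edgeR 4.0.16 in R 4.3.3 (quasi-likelihood test, two-sided, no covariate) after a filter on low counts (filterByExpr, minimum count 10 and minimum total 15). DESeq2 1.42.0, total-count scaling, other filters, a replicate block, fits of 2 genotypes and leaving out each library were the alternatives. The steps were tested on simulated data. All 18 replicate pairs differed beyond counting error (chi-square per degree of freedom of 4.67 or more). Depth was 16553324 to 20324286 counts per library, and intervals of summed counts are exact Poisson (95%). The members and the gene lists were chosen with earlier results of these data known. Genes named beside the members were Lpl, Vldlr, Lrp1, Mttp, Pltp, Abca1, Nr1h3 and Pparg, other apolipoproteins, up to 3 called genes per direction, list and comparison with a mean of at least 1 CPM, and the 3 genes with the highest Pearson r to a member. From the called list genes outside the apolipoproteins and those always named, values are given for calls that held in every alternative, a limit set after the values were seen; over all named genes beside the members, 43 of 64 calls did. A further gene that the rule names is not reported here. Sequences are from RefSeq (GRCm38.p6).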

Additional observations from a re-analysis of the deposited data

Results flagged for a closer look

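In 54 groups of 4 libraries, 18 genes in 3 genotypes, 2 held a library set apart from the other 3 by more than Dixon's limit; chance sets apart about 1 in 20 groups. Apoe in TD replicate 4 stood at 1150 CPM, beside 1590 to 1610 CPM in the other TD libraries, a gap of 0.949 of the range of the group. Abca1 in WT replicate 1 stood at 505 CPM, beside 636 to 655 CPM in the other WT libraries, a gap of 0.870 of the range.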

How the results depend on the processing

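No called fold change of a member or named gene turned its direction; Apoa1 in TA against WT, never called, ran from −0.36 to 0.28 without single libraries. The balance of all calls did turn: TD against TA had more lower calls, but 1802 higher and 982 lower with total-count scaling, 1681 and 1416 without the low-count filter, and 1770 and 1756 without TA replicate 3, and TD against WT had 2349 higher and 2352 lower by DESeq2. Counts of genes called without 1 library in turn ran from 3121 to 4705 in TD against WT, 1160 to 1939 in TA against WT and 1422 to 3526 in TD against TA (1422 without TA replicate 2, 1432 without TD replicate 4, 1586 without TD replicate 3), and over the 6 pathway lists from 20 to 31, 14 to 22 and 15 to 23. Of 365 values of the members' fold changes, those that moved or changed side of the threshold are given with the genes, except that without a filter on low counts Apoc1 and Apoc3 in TA against WT (0.35 and −0.53) and Apod in TD against TA (0.31) passed. Among named genes of the lists, 138 of 1669 values lost a call, 9 gained one (Lpl in TA against WT by DESeq2 and Vldlr in TD against TA with total-count scaling among them) and none reversed. Without scaling by exon length, 12 of 27 ranks among the members moved. A block on replicate number gave 4246, 1560 and 2488 calls in TD against WT, TA against WT and TD against TA, and 31, 18 and 20 in the lists. Each gene's genotype mean was subtracted from its log2 CPM, and these deviations correlated between same-numbered libraries from −0.237 to 0.196. The correlation was above 0.1 in 2 of 12 pairs, so no pairing by number was seen. Whether the numbers mark a shared culture or batch was not given. Among genes given with values, the block ended the call of Apoc4 in TA against WT (edgeR adjusted p = 0.0557) and gave one for Apoo in TD against WT. Depth limits Apoa1, Apoa2, Apoa4, Apob and Apom, with at most 72 counts in any library.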
